A study of Mus musculus with 7 samples.

Results

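The genes described here were 35 markers of the epithelium of the lung, out of 53465 genes in the table. They comprised 12 genes of the alveolar type 2 cell, 6 of the alveolar type 1 cell, 10 of the club cell and 7 of the ciliated cell. They were chosen by the symbols of these cell types and by their estimated counts in 1 metastasis against 6 primary tumors, so their levels in the metastasis are a description and carry no test. All 35 were found in the table.

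Cells of EMT6, a mammary carcinoma line of the mouse, were implanted orthotopically, in the mammary fat pad of Balb/c mice. EMT6-P tumors (n = 3 libraries) grew under an isotype control antibody. EMT6-PTR tumors (n = 3 libraries), labelled anti-PD-L1 resistant, grew under αPD-L1 antibody, which blocks the ligand of the checkpoint receptor PD-1. Both antibodies were given at 250 μg per mouse every 3 days until the institutional endpoint. The metastasis (n = 1) carries the same resistant variant and treatment labels. Its label, like that of every primary tumor, reads breast tumor tissue, and no organ is given for it. All 7 libraries are bulk tissue of implanted tumors that also holds cells of the host, so fewer cells of a type and less RNA per cell cannot be told apart. The labels number the primary tumors but do not say that each came from its own mouse. The paper's figure legend on this sequencing treats replicates as technical by default and does not mark the sequenced ones as biological. Each library is called a tumor here, but whether the libraries of a group are separate tumors is not known. The p-values and SEs below therefore measure the spread between these libraries, which need not be the spread between mice.

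The total estimated count per library ranged from 20430110 to 25213472 and was 24592782 in the metastasis. CT010467.1 took 13.8% of the counts of EMT6-PTR replicate 2 and 0.433% to 1.35% of those of the other 6 libraries. Expression is given as CPM on the upper-quartile scale, which sets libraries level at the upper quartile of their counts. The median gene with at least 10 counts in a library differed by 0.05 on the log2 scale between the metastasis and the mean of the primary tumors.

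The gas-exchange surface of the lung is lined by flat type 1 cells, across which gas diffuses, and cuboidal type 2 cells, which make surfactant in lamellar bodies and renew the alveolus. The conducting airways are lined by secretory club cells, which release secretoglobins and hold cytochrome P450 enzymes, and by ciliated cells, whose beating cilia clear mucus. NKX2-1 is the homeodomain factor of the lung lineage, and FOXJ1 and the RFX factors drive the genes of motile cilia.

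The promoters of 28 of the 35 members were given in RefSeq (build GRCm38.p6), each from 250 bases before to 50 bases after a transcription start, 32 windows in all. Windows were searched on both strands for CTCAAG, the core of the NKX2-1 site, for GTTGCC, a core of the RFX site, and for the forkhead motif TGTTTAC. None of these 3 motifs contains another. CTCAAG was in 9 of the 32 member windows and in 15.9% of all 32851 promoter windows. GTTGCC was in 5 member windows and in 12.5% of all windows, and TGTTTAC was in 2 member windows and in 3.65% of all. Shown here are 4 of the windows with a match, a pair from the alveolar type 2 list and a pair from the ciliated list, which were picked for their matches and belong to members at or near 0 counts in the primary tumors. Capitals mark CTCAAG or GTTGCC on either strand.
Sftpb (chr6:72304360-72304659, plus strand): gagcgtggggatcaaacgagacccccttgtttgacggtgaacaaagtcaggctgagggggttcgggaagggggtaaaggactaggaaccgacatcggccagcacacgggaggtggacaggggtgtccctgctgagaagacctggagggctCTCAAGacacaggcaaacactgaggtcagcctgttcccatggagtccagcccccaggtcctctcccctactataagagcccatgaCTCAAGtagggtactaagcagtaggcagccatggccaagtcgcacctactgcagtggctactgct
Sftpa1 (chr14:41131538-41131837, plus strand): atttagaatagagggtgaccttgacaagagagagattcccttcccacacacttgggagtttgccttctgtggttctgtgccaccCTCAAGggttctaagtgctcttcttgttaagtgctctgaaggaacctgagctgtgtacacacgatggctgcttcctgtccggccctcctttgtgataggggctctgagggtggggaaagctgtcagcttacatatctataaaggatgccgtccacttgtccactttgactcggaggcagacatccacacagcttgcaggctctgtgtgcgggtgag
Dynlrb2 (chr8:116504765-116505064, plus strand): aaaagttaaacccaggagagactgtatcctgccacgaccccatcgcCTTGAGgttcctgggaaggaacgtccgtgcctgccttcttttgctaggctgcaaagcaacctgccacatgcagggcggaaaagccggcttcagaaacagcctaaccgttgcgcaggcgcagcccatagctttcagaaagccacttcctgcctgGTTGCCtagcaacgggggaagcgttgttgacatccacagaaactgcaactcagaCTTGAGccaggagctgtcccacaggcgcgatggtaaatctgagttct
Tekt1 (chr11:72361833-72362132, minus strand): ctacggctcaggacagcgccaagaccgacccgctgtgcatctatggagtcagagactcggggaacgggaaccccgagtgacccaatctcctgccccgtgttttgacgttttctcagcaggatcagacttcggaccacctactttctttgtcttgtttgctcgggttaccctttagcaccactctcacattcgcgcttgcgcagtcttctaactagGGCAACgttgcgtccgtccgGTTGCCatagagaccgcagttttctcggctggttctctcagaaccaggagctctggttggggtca
The Sftpb window held CTCAAG at -100 and -15 from the start, and the Sftpa1 window held it at -166. The Dynlrb2 window held GTTGCC at -51 and CTTGAG, the other strand of CTCAAG, at -204 and 4. The Tekt1 window held GGCAAC, the other strand of GTTGCC, at -35 and GTTGCC at -15, and the window of the other Tekt1 start held none of the motifs. These letters are descriptions of the windows, and binding was not measured.

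The metastasis exceeded the mean of the 6 primary tumors by at least 4-fold for 32 of the 35 genes, on log2 CPM with a prior count of 2, and exceeded every primary tumor for 33. Of the 34 members with at least 10 counts in a library, 31 passed this fold, and 11.1% of all 19002 genes with that many counts did. Among the 12 members that passed a filter on low counts in the primary tumors alone, 10 passed this fold, and 5.28% of the 15645 genes that passed the filter did. The contrast chose the members, so nothing is read from the difference between these shares. The members that stayed under 4-fold were the type 2 gene Etv5, the type 1 gene Aqp5 and the ciliated gene Ccdc39. In the primary tumors, 8 members had no count in any of the 6 libraries and 8 more had 1 to 3 counts over all of them. A ratio to 0 is given as a lower bound, against a floor of 3 counts over the 6 primary tumors pooled, and ratios to 1 to 3 pooled counts are given with an exact 95% counting interval, which covers counting error only. Together the 35 genes took 1.14% of the counts of the metastasis (Wilson 95% interval 1.137% to 1.146%) and between 0.00897% and 0.0153% in the primary tumors.

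**Figure D1:**
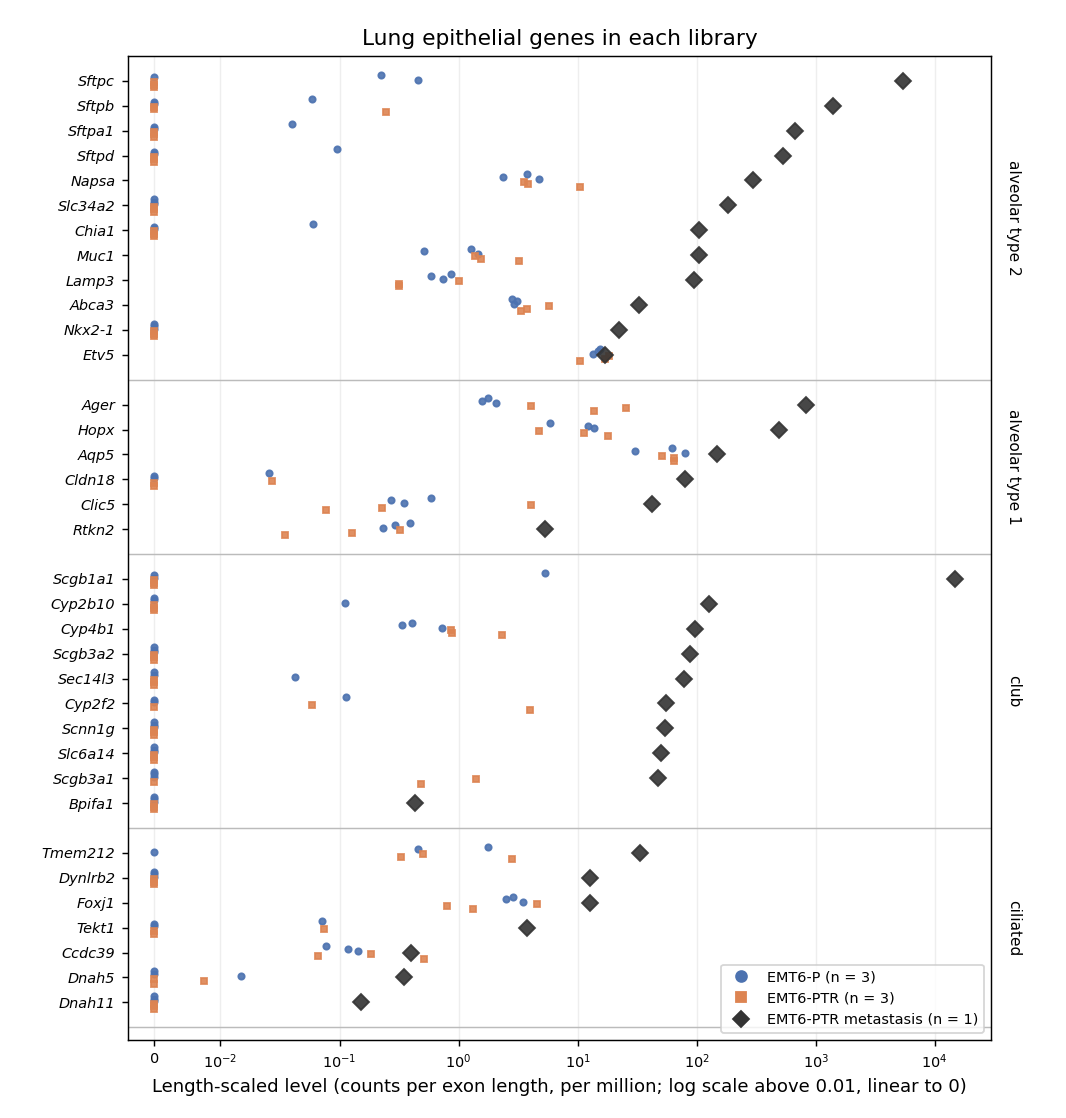
Length-scaled level of each member (estimated counts divided by exon length, scaled to the same sum in every library) in each library, grouped by compartment, on an axis that is logarithmic above 0.01. The metastasis lies to the right of all 6 primary tumors for 33 genes, and Etv5 and Ccdc39 are the exceptions.

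The surfactant genes of the type 2 cell had the largest counts of that compartment. Sftpc (ENSMUSG00000022097.4, chr14:70520949-70524081, minus strand), which encodes the hydrophobic surfactant protein C, had 2, 0 and 4 counts in EMT6-P replicates 1 to 3, 0 in each EMT6-PTR tumor and 58746 in the metastasis. Sftpb, the other hydrophobic surfactant protein, had 1, 0 and 0 counts in the EMT6-P tumors, 0, 0 and 5 in the EMT6-PTR tumors and 29033 in the metastasis. These are CPM ratios to the pooled primary tumors of 49996 and 24709. The collectins, which coat inhaled microbes, were as sparse outside the metastasis. Sftpa1 had 1 count in EMT6-P replicate 1, none in the other primary tumors and 20184 in the metastasis, a ratio of 103067 (18496 to 4071130). Sftpd had 2 counts, also in EMT6-P replicate 1, and 13506 in the metastasis, a ratio of 34483 (9544 to 284769).

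Genes that handle surfactant differed in how far the primary tumors themselves expressed them. Slc34a2, the phosphate cotransporter of type 2 cells, had no count in any primary tumor and 9818 in the metastasis, so it was at least 16711-fold higher. Napsa, the aspartic protease that processes surfactant protein B, had 88, 58 and 108 counts in the EMT6-P tumors, 79, 87 and 292 in the EMT6-PTR tumors and 8412 in the metastasis, a ratio of 60.4. Lamp3, a membrane protein of lamellar bodies, ranged from 9 to 28 counts in the primary tumors and had 3357 in the metastasis, a ratio of 152. Abca3, which pumps lipid into lamellar bodies, had 230, 267 and 231 counts in the EMT6-P tumors, 450, 303 and 327 in the EMT6-PTR tumors and 3282 in the metastasis, a ratio of 9.27. Napsa and Abca3 were thus read in every library, while Slc34a2 was read in the metastasis alone.

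The remaining genes of this compartment were regulators and surface or secreted proteins. Nkx2-1 had no count in the primary tumors and 664 in the metastasis, which puts it at least 1130-fold higher. Muc1, a membrane mucin of many epithelia, had a lowest count of 11, a highest of 79 in EMT6-PTR replicate 3, and 2577 in the metastasis, a ratio of 64.8. Chia1, a secreted chitinase, had 1 count over the primary tumors and 2121 in the metastasis, a ratio of 10831 (1942 to 427985). Etv5, an ETS transcription factor that maintains type 2 cells, had 550, 564 and 472 counts in the EMT6-P tumors, 627, 596 and 449 in the EMT6-PTR tumors and 736 in the metastasis. Its CPM was 28.9 in the metastasis and 17.5 to 33.3 in the primary tumors, so the metastasis lay inside their range.

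Of the type 1 genes, 5 had more than 3 counts over the primary tumors and Cldn18 did not. Cldn18, the claudin of alveolar tight junctions, had 1 count in EMT6-P replicate 1, 1 in EMT6-PTR replicate 1 and 3733 in the metastasis, a ratio of 9531 (2637 to 78730). Ager (ENSMUSG00000015452.14, chr17:34597862-34600936, plus strand) encodes the receptor RAGE, a membrane protein abundant on type 1 cells. It had 33, 31 and 38 counts in the EMT6-P tumors, 72, 468 and 307 in the EMT6-PTR tumors and 18923 in the metastasis, a ratio of 102. Hopx, a homeodomain protein without a DNA-binding surface of its own, ranged from 60 to 288 counts in the primary tumors and had 7883 in the metastasis, a ratio of 43.7. Rtkn2, rhotekin 2, ranged from 2 to 19 counts and had 313, a ratio of 23.5.

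The remaining type 1 genes were the most expressed in the primary tumors or the most uneven there. Aqp5, a water channel, had 1419, 733 and 1786 counts in the EMT6-P tumors, 1101, 1417 and 1768 in the EMT6-PTR tumors and 4082 in the metastasis. Its ratio of 2.53, and of 1.91 to the highest primary tumor, was the smallest of the compartment. Clic5, a chloride intracellular channel protein, had 45, 22 and 26 counts in the EMT6-P tumors, 298, 17 and 7 in the EMT6-PTR tumors and 3924 in the metastasis, a ratio of 48.3. The library with 298 counts, EMT6-PTR replicate 1, also had the highest counts of the skeletal muscle genes Tnnt3 (9594, against 0 to 1460 in the other libraries) and Mylpf (3775, against 11 to 440). Clic5 is also expressed in skeletal muscle, and the part of muscle in its value was not tested.

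Scgb1a1 (ENSMUSG00000024653.2, chr19:9083636-9087958, minus strand), the secretoglobin that defines club cells, had the highest count of the 35 genes in the metastasis. It had 22 counts in EMT6-P replicate 1, 0 in each of the other 5 primary tumors and 75235 in the metastasis, a ratio of 17463. Its relatives were lower. Scgb3a2 had no count in the primary tumors and 824 in the metastasis, at least 1403-fold higher. Scgb3a1 had 7 and 3 counts in EMT6-PTR replicates 1 and 3, 0 in the other primary tumors and 298 in the metastasis, a ratio of 152.

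The cytochrome P450 enzymes of the club list oxidize inhaled and endogenous compounds. Cyp2b10 had 2 counts over the primary tumors and 2847 in the metastasis, a ratio of 7269 (2010 to 60051). Cyp2f2 had 2, 0 and 0 counts in the EMT6-P tumors, 1, 0 and 84 in the EMT6-PTR tumors and 1179 in the metastasis. EMT6-PTR replicate 3 therefore held most of the Cyp2f2 counts of the primary tumors, and the metastasis was 14.2-fold above that library and 69.2-fold above the pooled primary tumors. Cyp4b1 had 8, 7 and 14 counts in the EMT6-P tumors, 16, 17 and 55 in the EMT6-PTR tumors and 2325 in the metastasis, a ratio of 101.

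The remaining club genes were almost without counts outside the metastasis. Sec14l3, a member of a family of lipid-binding proteins, had 1 count over the primary tumors and 2314 in the metastasis, a ratio of 11816 (2119 to 466912). Scnn1g, the gamma subunit of the epithelial sodium channel, and Slc6a14, an amino acid transporter, had no count in the primary tumors. They had 1718 and 1812 counts in the metastasis and were at least 2924-fold and 3084-fold higher. Bpifa1, a secreted protein of the upper airway, also had no count in the primary tumors but only 7 in the metastasis, at least 11.9-fold higher. It was the only member with fewer than 10 counts in every library.

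The ciliated genes were detected in the metastasis at far lower counts. Foxj1 (ENSMUSG00000034227.7, chr11:116330704-116335399, minus strand), the regulator of motile cilia, had 65, 60 and 78 counts in the EMT6-P tumors, 99, 18 and 36 in the EMT6-PTR tumors and 352 in the metastasis, a ratio of 5.05. Tmem212, a transmembrane protein of ciliated cells, had 11, 3 and 0 counts in the EMT6-P tumors, 3, 2 and 21 in the EMT6-PTR tumors and 253 in the metastasis, a ratio of 32.3. Both were thus above every primary tumor while being read in most of them.

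Structural genes of the cilium were sparser still. Dynlrb2, a dynein light chain, had no count in the primary tumors and 75 in the metastasis, at least 128-fold higher. Tekt1, a tektin of ciliary microtubules, had 2 counts over the primary tumors and 64 in the metastasis, a ratio of 163 (43.4 to 1378). The outer-arm dynein heavy chains, which power the beat, had the lowest levels per length of the 35 genes in the metastasis. Dnah5 had 3 counts over the primary tumors and 58 in the metastasis, a ratio of 98.7 (32.1 to 493), and Dnah11 had 0 and 23, at least 39.2-fold higher. Ccdc39, which sets the repeat length of the axoneme, had 5, 8 and 9 counts in the EMT6-P tumors, 11, 4 and 40 in the EMT6-PTR tumors and 31 in the metastasis. EMT6-PTR replicate 3 exceeded the metastasis for this gene, with a CPM of 1.56 against 1.23. Exons of Ccdc39 share 1256 bases with Ttc14 on the opposite strand, and those of Dnah11 share 642 bases with Cdca7l. The strand setting of the counting is not given in the sources used here, so reads of these overlapping genes may not be told apart. Exons of Napsa, Abca3, Hopx, Rtkn2 and Cyp2f2 also share bases with a gene on the opposite strand.

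Levels of different genes were compared per length, as estimated counts divided by exon length and scaled to the same sum in every library. On this scale Scgb1a1 ranked 4 among all genes of the metastasis, Sftpc ranked 16 and Sftpb ranked 97, and no other member was among the top 100. Summed over a compartment, the length-scaled level in the metastasis was 15563 for club, 8834 for type 2, 1605 for type 1 and 63.6 for ciliated genes. Scgb1a1 alone made 96.1% of the club sum, and the other 9 club genes summed to 599.6. The length-scaled level of the median gene followed another order, with 145 for type 2, 114 for type 1, 66.9 for club and 3.74 for ciliated genes. By sum and by median the ciliated compartment was the lowest. Since there is 1 metastasis, these orders have no replicate check.

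In the primary tumors the order was different again. The summed length-scaled level of the type 1 genes was 45.0 to 101, that of the type 2 genes 21.5 to 30.0, that of the club genes 0.337 to 6.79 and that of the ciliated genes 1.21 to 5.29. Aqp5 and Etv5, the members under 4-fold in the alveolar lists, were the most expressed members of their lists in counts. Aqp5 alone was at 30.6 to 80.6 per length and made most of the type 1 sum in each primary tumor. The club genes were thus the compartment that was lowest in 4 of the 6 primary tumors and highest, by its sum, in the metastasis.

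**Figure D2:**
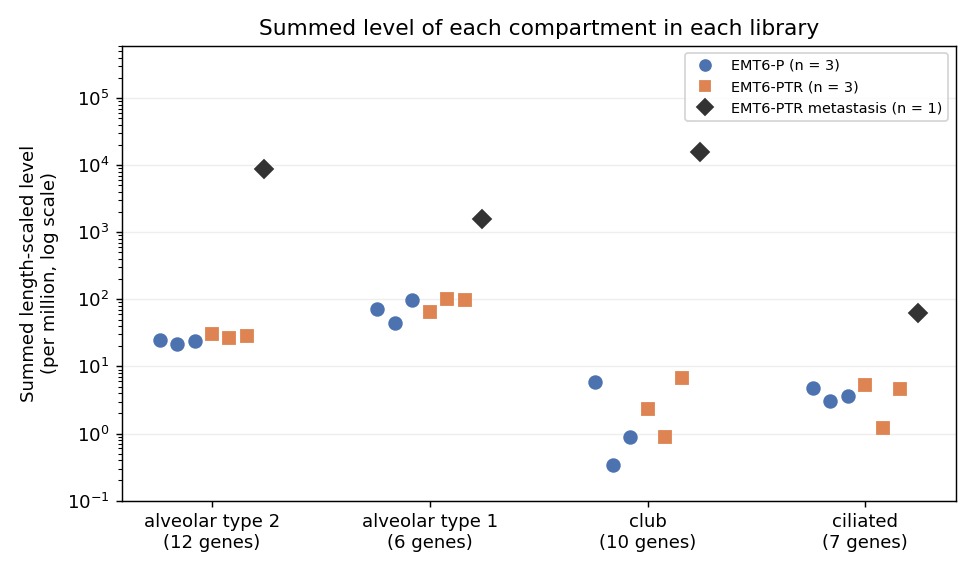
Summed length-scaled level of each compartment (log axis) in each library, with EMT6-P tumors as circles, EMT6-PTR tumors as squares and the metastasis as a diamond. In each compartment the metastasis is above all 6 primary tumors, with a sum of 15563 for club and 63.6 for ciliated genes.

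The difference in log2 CPM between the metastasis and the mean of the primary tumors had a median of 9.02 over the club genes, 8.97 over the type 2 genes, 6.10 over the type 1 genes and 4.43 over the ciliated genes. The SD of the compartment's median log2 CPM over the 6 primary tumors was 0.50 for type 2, 0.47 for type 1 and 0.35 for ciliated genes. It was 0 for club genes, most of which had no count in any given primary tumor. With log2 ratios of CPM to the pooled primary tumors, and genes at 0 set at their bound, the medians were 11.8 for type 2, 11.0 for club, 5.52 for type 1 and 5.29 for ciliated genes. The order of club and type 2 genes thus turned with the treatment of sparse genes, while type 1 and ciliated genes were below both in either case.

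Further markers of the same 4 cell types were mostly higher in the metastasis as well. Of 56 such genes, 46 were at least 4-fold higher, and none was 4-fold lower. By list these were 10 of 12 other type 2 genes, 8 of 10 other type 1 genes, 7 of 10 other club genes and 21 of 24 other ciliated genes, with medians of 3.78, 4.54, 3.34 and 2.94 on the log2 scale, against 0.05 over all genes with at least 10 counts. The type 2 genes Cxcl15, a chemokine of lung epithelium, and Sfta2 had 6911 and 589 counts in the metastasis and 10 and 0 over the 6 primary tumors. The type 1 genes Spock2 and Col4a3, the latter a basement membrane collagen chain, had 4431 and 602 counts in the metastasis. The club genes Ces1d, a carboxylesterase, and Gsta3, a glutathione transferase, had 2174 and 1052 counts there. Among the ciliated genes, Dnah9 and Ccno, which acts in the making of multiple cilia, had 81 and 207 counts, and Mcidas, which starts that program, had 0. Rfx2 and Rfx3 differed by 0.66 and -1.13 on the log2 scale.

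Markers of other cells of the lung were also higher in the metastasis. At least 4-fold higher were 9 of 12 endothelial genes, 8 of 10 mesenchymal genes, 5 of 6 mesothelial genes and 6 of 12 alveolar macrophage genes. Their summed length-scaled levels in the metastasis were 868, 375, 265 and 651. In the primary tumors these sums ranged from 70.3 to 156, 15.0 to 32.2, 94.7 to 298 and 7.76 to 18.9, so the mesothelial sum of the metastasis lay below that of EMT6-PTR replicate 3. Inmt, a methyltransferase of lung fibroblasts, had 3524 counts in the metastasis and 10 over the primary tumors, and Tbx4, a factor of lung mesenchyme, had 506 and 12. Car4, a carbonic anhydrase of alveolar capillaries, had 960 counts, Hpgd had 884, and the mesothelial genes Upk3b and Gpm6a had 801 and 424. The macrophage genes Chil3 and Marco had 9849 and 239 counts in the metastasis, while Fabp1 and Ear6 of the same list had 0. Chil3 alone made 571 of the macrophage sum of 651, which was 79.4 without it.

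Markers of other organs had summed length-scaled levels in the metastasis of 2.94 for liver, 2.95 for kidney and 0.199 for stomach. In the primary tumors these were at most 0.724, 7.86 and 0.676. The liver gene Alb, the kidney gene Umod and the stomach gene Pgc had 0 counts in the metastasis. At least 4-fold higher were 1 of 6 liver genes (Fga, 72 counts), 0 of 6 kidney genes and 1 of 6 stomach genes (Muc5ac, 9 counts). Of 8 airway basal and neuroendocrine genes 1 was higher, Calca, which encodes the peptide CGRP, with 132 counts. The basal keratin Krt14 was lower, with a CPM of 29.8 against 19.0 to 523 in the primary tumors. The metastasis thus lay above EMT6-PTR replicate 3, the lowest primary tumor for Krt14. The summed level of the 8 genes was 59.4 in the metastasis and 36.7 to 812 in the primary tumors. Of 6 B cell genes 5 were higher, with a summed level of 33.2 against 0.826 to 11.5 in the primary tumors. All 6 skeletal muscle genes were at least 4-fold lower, and 4 of them, without Tnnt3 and Mylpf, when EMT6-PTR replicate 1 was left out of the mean. The muscle sum was 3.48 in the metastasis. It ranged from 5.87 in EMT6-PTR replicate 3 to 5104 in EMT6-PTR replicate 1. The metastasis lay inside the range of the primary tumors for Tnnt3, at a CPM of 1.18 against 0 to 416. For Mylpf it did so at 0.669 against 0.614 to 164. Of 6 cardiac genes 3 were higher and 2, Tnnt2 and Sln, lower, or 1, Tnnt2, without that tumor. Of the 3, Myh6 was below EMT6-PTR replicate 1, with a CPM of 3.77 against 41.1. Of 6 adipocyte genes 1 was higher and 1, Cfd, lower, joined by Adipoq without that tumor, and 4 of 10 mammary epithelial genes were higher. The mammary epithelial list summed to 1397 in the metastasis, or 499 without its highest gene, and to 775 to 3136 in the primary tumors. Its milk genes Csn2 and Wap were at 0 in all 7 libraries. The part of other epithelia in its sums was not tested. The part of adjoining organ tissue in the levels of the 35 members was not tested.

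**Figure D3:**
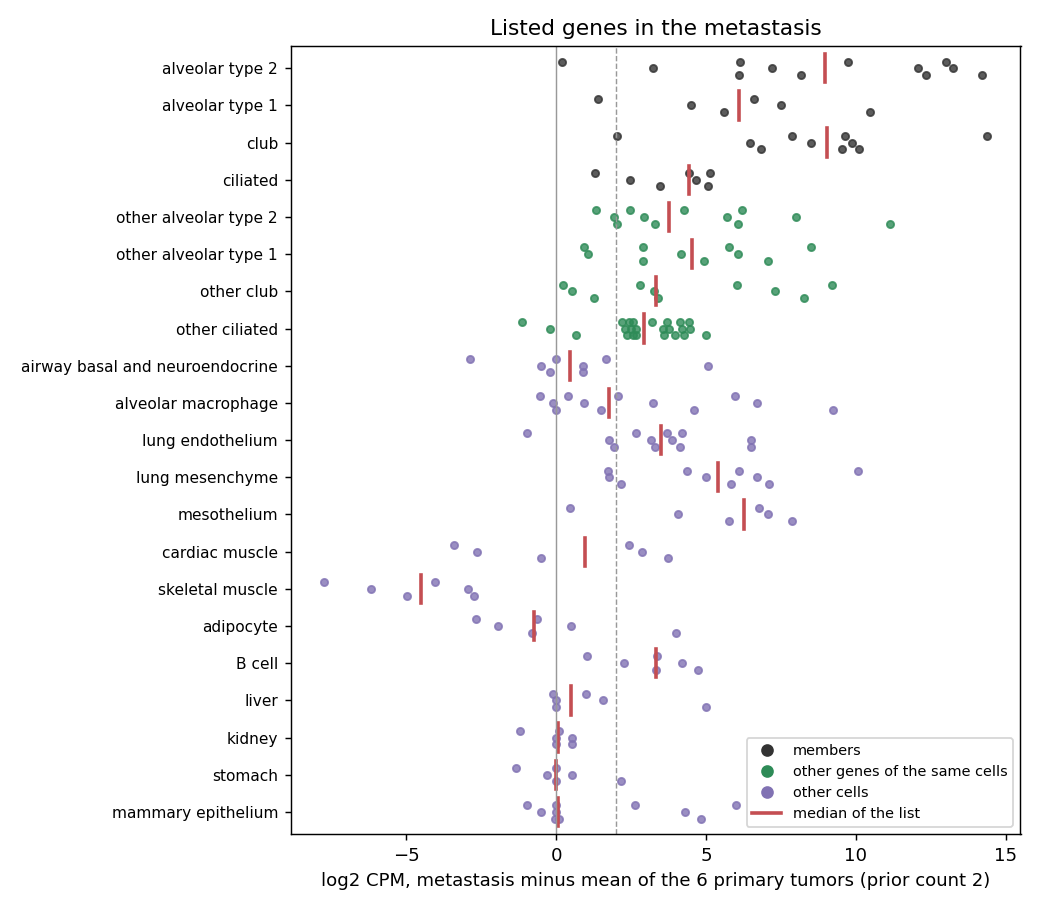
Difference in log2 CPM (prior count 2) between the metastasis and the mean of the 6 primary tumors for every gene of each list reported here, with the median as a red bar and a dashed line at 4-fold. The medians of the 4 member lists run from 4.43 for ciliated to 9.02 for club genes, and those of the kidney and stomach lists lie near 0.

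The contrast between EMT6-PTR and EMT6-P primary tumors was not used to choose the members and asks whether the resistant tumors expressed lung epithelial genes differently. Only 12 of the 35 members passed the filter on low counts: 5 of type 2, 5 of type 1, 1 of club and 1 of the ciliated list. The other 23 did not pass it, 8 of them with no count in any of these tumors. In the quasi-likelihood test of edgeR, with p-values adjusted by Benjamini-Hochberg over all 15645 genes, none of the 12 passed an adjusted p of 0.05, and 0.0% of all genes did. Under an unadjusted p of 0.05, 3 members were higher and 0 lower, where 5.84% and 5.57% of all genes were. The same 3 members were the ones with all 3 EMT6-PTR tumors above all 3 EMT6-P tumors, which held for 9.52% of all genes. A fit without the filter, over 28451 genes, tested 27 members and called none, and 5 of them had an unadjusted p under 0.05, as did 7.65% of all genes in that fit. These were the same 3 and the sparse club genes Cyp2f2 and Scgb3a1, whose counts were given above. The median log2 fold change was 0.32 over the 12 members and 0.03 over all genes tested, with 9 members above 0 and 3 below.

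Ager showed the largest difference. Its CPM was 1.60, 1.44 and 1.78 in EMT6-P replicates 1 to 3 and 3.12, 25.9 and 11.9 in EMT6-PTR replicates 1 to 3. The groups did not overlap, and the EMT6-PTR tumors spread over a far wider range than the EMT6-P tumors. The log2 fold change was 3.08 ± 0.74 (SE), with an unadjusted p of 0.00478 and an adjusted p of 0.421 in edgeR. DESeq2 gave an adjusted p of 0.00233 for Ager and called none of the 8 other members to which it gave an adjusted p, while Cyp4b1, Rtkn2 and Lamp3 got none. Over all genes it called 0.882% higher and 0.914% lower. Over all alternatives the adjusted p ranged from 0.00233 to 0.865 and the log2 fold change from 2.23 to 3.55. Beside this, the summed length-scaled level of the type 2 list was 21.5 to 24.6 among EMT6-P tumors. It was 30.0, 26.6 and 28.2 for EMT6-PTR replicates 1 to 3. Length-scaled sums carry no upper-quartile factor, so libraries can stand in another order than by CPM. Etv5 was at 18.3 and 17.1 per length in EMT6-PTR replicates 1 and 2, but at a CPM of 27.2 and 33.3. Whether the gap in the type 2 sums holds on the CPM scale was not tested. Etv5, Abca3 and Napsa made most of each type 2 sum, while Sftpa1, Sftpc, Sftpd, Slc34a2 and Nkx2-1 had 0 counts in every EMT6-PTR tumor. The sums of the other 3 lists overlapped between the groups. That of the type 1 list, which holds Ager, was 45.0 to 97.2, against 64.0, 101 and 97.3. That of the club list was 0.337 to 5.82, against 2.33, 0.885 and 6.79. That of the ciliated list was 3.06 to 4.75, against 5.29, 1.21 and 4.64. The part of other lung epithelial RNA in the Ager difference was not tested.

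Abca3 and Cyp4b1 were the other members without overlap. The CPM of Abca3 was 11.1, 12.4 and 10.8 for EMT6-P replicates 1 to 3, against 19.5, 16.8 and 12.7 for EMT6-PTR replicates 1 to 3, with a log2 fold change of 0.51 ± 0.21 (SE) and an adjusted p of 0.437 in edgeR. The CPM of Cyp4b1 was 0.388, 0.325 and 0.657 for the same EMT6-P tumors, against 0.694, 0.942 and 2.14 for the EMT6-PTR tumors, with a log2 fold change of 1.46 ± 0.56 (SE) and an adjusted p of 0.432. In both genes the lowest EMT6-PTR tumor lay close to the highest EMT6-P tumor.

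The other tested members overlapped between the groups. Clic5 had a log2 fold change of 1.68 ± 1.28 (SE) that rested on EMT6-PTR replicate 1, at a CPM of 12.9 against 0.272 to 2.18 in the other 5 tumors, and without that library it was -1.31. Muc1 and Napsa had log2 fold changes of 0.93 ± 0.54 and 0.71 ± 0.51 (SE), both highest in EMT6-PTR replicate 3, at a CPM of 3.07 and 11.3. Hopx, Aqp5 and Etv5 were at 0.13 ± 0.57, 0.06 ± 0.35 and 0.05 ± 0.25. Lamp3, Foxj1 and Rtkn2 were at -0.50 ± 0.49, -0.52 ± 0.57 and -1.01 ± 0.70. In each of these 9 genes the fold change was smaller than 2 SE.

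**Figure D4:**
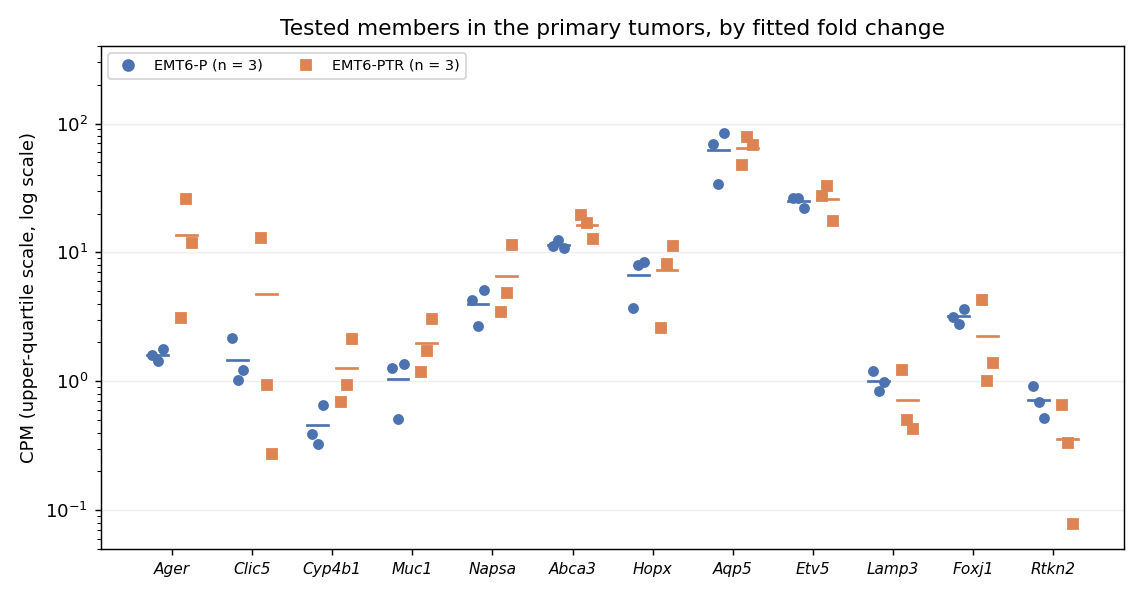
CPM (upper-quartile scale, log axis) of the 12 tested members in the 3 EMT6-P and 3 EMT6-PTR tumors, ordered by fitted fold change, with points for tumors and lines for group means. All 3 EMT6-PTR tumors lie above all 3 EMT6-P tumors for Ager, Cyp4b1 and Abca3, and Clic5 is high in 1 EMT6-PTR tumor at 12.9.

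The few counts of the sparse members were unevenly spread over the primary tumors. EMT6-P replicate 1 had a count for 23 of the 35 members, against 14 to 18 in the other primary tumors. Its 22 counts of Scgb1a1 were 0.0292% of the count in the metastasis, and its counts of Sftpc, Sftpa1 and Sftpd, each 1 or 2, were 0.0034%, 0.00495% and 0.0148%. Of the 19 members with more than 3 counts over the primary tumors, EMT6-PTR replicate 3 was the highest tumor for 8: Sftpb, Napsa, Muc1, Hopx, Cyp2f2, Cyp4b1, Ccdc39 and Tmem212. The same library had a summed length-scaled level of the mammary epithelial list of 775, against 2522 to 3136 in the other primary tumors, and of the other club genes of 612, against 195 to 328. Gsta4 alone made 500 of that 612 and was at 68.3 to 203 in the other primary tumors, so the higher sum came from 1 gene. The part of these differences in its member counts was not tested.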

How the data were processed

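Bulk RNA was sequenced in 6 libraries of primary tumors (3 EMT6-P, 3 EMT6-PTR) and 1 of a metastasis. The authors made stranded polyadenylated libraries, checked reads with FastQC 0.11.5, aligned them with STAR 2.6.0a to the mouse genome GRCm38 and estimated gene counts with RSEM 1.3.1. The deposited values are these estimated counts, unfiltered and not normalized, 1 column per library. RSEM shares reads that fit several genes, and 10 of the 35 members had fractional counts in the metastasis.

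Identifiers were matched to GENCODE M21 symbols, positions and exon lengths (53274 of 53465 had a symbol). Counts were rounded for the tests. EMT6-PTR and EMT6-P tumors were compared with edgeR 4.0.16 (filterByExpr, upper-quartile factors over these 6 libraries, glmQLFTest) in R 4.3.3, at an adjusted p of 0.05. An SE is the log2 fold change over the square root of F. Values with the metastasis used upper-quartile factors over all 7 libraries, without a test. Levels per length used the union of exons and no upper-quartile factor. The fits were also run on simulated counts, and nothing is concluded from those runs here. Python 3.11.15, SciPy 1.17.1 and matplotlib 3.10.9 were used.

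The members and lists were chosen with earlier results of these data known. All members are named, and from every other list up to 2 genes with the highest signed difference (metastasis minus primary tumors, so the least lowered genes of a list that fell), besides which Rfx2, Rfx3, Gsta4, genes at 0 and genes at least 4-fold lower were named after their values were seen. Alternatives were TMM or DESeq2 1.42.0 scaling, total counts, limma-voom (limma 3.58.1), DESeq2's test, other filters and prior counts, a fit that included the metastasis, a block for the replicate number, either primary group alone as reference, the highest primary tumor, means over a compartment, the longest transcript as length, and leaving out each tumor. Leaving out EMT6-PTR replicate 1 for the marker lists was added after seeing the data. A further list is not reported here. Intervals and floors cover counting error only.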

Additional observations from a re-analysis of the deposited data

How the results depend on the processing

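The number of members at least 4-fold higher in the metastasis was 32 under every scaling, prior count, reference group and left-out tumor, and 31 against the highest primary tumor. In the comparison of the primary tumors, 0 genes were called under the edgeR and limma-voom alternatives, with a range of 0 to 0 when each tumor was left out, and 281 with DESeq2. The cause of that gap was not tested. With the replicate number as a block, 0 genes were called and the log2 fold change of Hopx was -0.0098. Deviations of same-numbered tumors correlated at 0.26, 0.25 and 0.04. Those of differently numbered tumors were not computed, so these values do not decide whether the numbers pair them. The main fit used no pairing. Genes at an unadjusted p under 0.05 numbered 1786, and 618 to 3234 when each tumor was left out. Signs turned for 4 members, none of them called. Hopx was at -0.023 with limma-voom, and ranged from -0.32 (without EMT6-PTR replicate 3) to 0.53 when each tumor was left out, with -0.16 without EMT6-P replicate 1. Etv5 was at -0.017 with limma-voom and ranged from -0.16 (without EMT6-PTR replicate 2) to 0.27, with -0.03 in the fit lacking EMT6-P replicate 3. Aqp5 ranged from -0.23 (without EMT6-P replicate 2) to 0.34, with -0.09 in the fit lacking EMT6-PTR replicate 2. Clic5 ranged from -1.31 (without EMT6-PTR replicate 1) to 2.24. A prior count of 0.5 raised the compartment medians to 10.9 for type 2, 11.0 for club and 5.78 for ciliated genes. The mean in place of the median gave 8.52 for club and 3.79 for ciliated genes. Ratios with bounds, an alternative chosen after seeing the data, gave 11.8, 5.52, 11.0 and 5.29 for type 2, type 1, club and ciliated genes. The club median was 9.0004 with TMM, 9.07 with total counts (which moved the median of all genes to 0.103), 9.10 against EMT6-P tumors only, and 9.02 to 9.12 when each tumor was left out. Lengths of the longest transcript gave summed levels of 9137, 1547, 12601 and 52.6. Between the primary tumors, 23 members did not pass the filter on low counts, and 8 had no count to test. The metastasis has no replicate.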
